A study of Mus musculus with 2 samples.

Results

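Polycomb repressive complex 2 (PRC2) was described through 10 genes that encode its subunits. They were Ezh1, Ezh2, Eed, Suz12, Rbbp4, Rbbp7, Jarid2, Aebp2, Mtf2 and Phf19. The list went by subunit and not by a measured value, but was drawn up with earlier results of these data known. The genes made up 10 of the 43346 Ensembl gene entries in each gene table and 10 of the 21461 nuclear protein-coding genes among them. Total RNA came from common myeloid progenitors (CMP), bone marrow cells that can form each of the myeloid and red cell lineages. These were primary cells of adult male mice, strain C57BL/6J, at 5 to 6 weeks of age, with no genotype or treatment named. A single group was sequenced in 2 libraries, biological replicates 1 and 2, for which ribosomal RNA was removed and 100 ng of RNA went into the ScriptSeq preparation. Both carried 1 donor label, so the spread between them may be partly technical, and with no second group there was no comparison of conditions and no p-value.

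PRC2 places methyl groups on lysine 27 of histone H3 (H3K27), a mark of silenced genes. EZH1 or EZH2 carries the catalytic site, which works only in a core with EED, a reader of the mark, and SUZ12, the scaffold, while RBBP4 or RBBP7 binds histones. Accessory subunits divide the complex into a form called PRC2.1, with a Polycomb-like protein such as MTF2 or PHF19, and a form called PRC2.2, with JARID2 and AEBP2. In blood formation EZH2 is known as the enzyme of dividing progenitors, and EZH1 as the one retained in resting and mature cells.

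The libraries held 28158803 expected counts in replicate 1 and 84041054 in replicate 2, a 2.98-fold difference in depth. The size ranges in the labels (unit not stated) also differed, 200 to 1000 for replicate 1 and 187 to 1606 for replicate 2, and their part in differences between the libraries, such as those of short models, was not tested. Expected counts are estimated reads per gene. Levels below are TPM, transcript abundance corrected for length, given as a mean ± SD (n = 2) and relative to all RNA in the table, of which nuclear protein-coding genes held 20.1% and 21.5%. All 5 progenitor markers (Kit, Cd34, Myb, Mpo and Flt3) stood at 20.97 TPM or more in both libraries. Ly6a and Il7r, taken as markers low in these cells, stood at 0.69 and 0.73 TPM and at 0.96 and 0.13 TPM. Il7r had 218 expected counts in replicate 1 and 76 in the deeper replicate 2, and the cause of this difference was not tested. Of 18 markers of mature blood lineages, macrophages, stroma and endothelium, 1 reached 1 TPM in both, the neutrophil gene Retnlg at 1.0 and 1.74 TPM. Pax5, Cd79a, Ms4a1, Cd3e, Cd8a, Ncr1, Col1a1 and Cdh5 had 0 counts in both. The RNA was that of pooled cells, so fewer cells that transcribe a gene and less RNA per cell cannot be told apart.

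Several results turn on short stretches of RNA that are in some transcript models of a gene and not in others, and these are shown first. Coordinates are those of GRCm38, the assembly also called mm10, and letters are those of GENCODE M21 transcripts, 5′ to 3′ on the strand of the gene. The first is the start of an 82-base cassette exon of Ezh2 on the minus strand (chr6:47546780-47546830, of an exon at chr6:47546749-47546830). Models Ezh2-209 and Ezh2-208 carry it, and the stop codon of Ezh2-209 is in capitals. The next pair are coding exons of Ezh2, on the minus strand, of 117 bases (chr6:47558178-47558294, absent from Ezh2-203) and 126 bases (chr6:47541845-47541970, absent from Ezh2-202). After these comes a 69-base coding exon of Suz12 on the plus strand (chr11:79999057-79999125, absent from Suz12-206). Next is the 153-base intronic part of the retained-intron model Eed-202, on the minus strand (chr7:89976744-89976896). The last is an 88-base coding exon of Phf19 on the minus strand (chr2:34898924-34899011, absent from Phf19-203).
Ezh2 cassette exon, first 51 bases: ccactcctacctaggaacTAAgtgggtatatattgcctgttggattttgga
Ezh2 exon absent from Ezh2-203: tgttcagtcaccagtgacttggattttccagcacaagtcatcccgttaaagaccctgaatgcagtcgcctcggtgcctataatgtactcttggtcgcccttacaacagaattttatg
Ezh2 exon absent from Ezh2-202: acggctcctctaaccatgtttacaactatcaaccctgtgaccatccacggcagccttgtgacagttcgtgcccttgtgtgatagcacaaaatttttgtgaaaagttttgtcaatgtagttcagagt
Suz12 exon absent from Suz12-206: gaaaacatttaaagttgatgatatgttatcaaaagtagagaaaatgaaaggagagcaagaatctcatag
Eed intronic part of Eed-202: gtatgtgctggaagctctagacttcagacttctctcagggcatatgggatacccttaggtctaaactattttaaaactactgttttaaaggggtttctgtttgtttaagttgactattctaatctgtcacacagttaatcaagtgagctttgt
Phf19 exon absent from Phf19-203: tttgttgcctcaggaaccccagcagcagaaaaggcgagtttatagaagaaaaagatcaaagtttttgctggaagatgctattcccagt
The exons of 117, 126 and 69 bases are multiples of 3, so a model without one of them keeps the reading frame. The cassette exon of 82 bases and the Phf19 exon of 88 bases are not. In Ezh2-209 the stop codon begins at base 19 of the cassette exon.

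Each of the 10 listed PRC2 genes was transcribed in the progenitors. All 10 stood at 1 TPM or more in both libraries, against 42.5% of nuclear protein-coding genes, and their median was 19.8 TPM in replicate 1 and 25.5 TPM in replicate 2. Nuclear protein-coding genes at 1 TPM or more in both libraries had medians of 6.71 and 7.77 TPM. The 10 genes were chosen with earlier results of these data known, so their share cannot be weighed against that of all genes. The further accessory genes Phf1 and Epop, read below, lay under 1 TPM in both libraries. By gene TPM, Rbbp7 and Ezh2 formed the top of the list at about the same level. Suz12, Rbbp4, Eed, Mtf2 and Aebp2 lay close together below them, followed by Jarid2, Ezh1 and Phf19, each clear of the next. Of the 9 neighbours in this order, 4 had ranges over the libraries that did not overlap: Ezh2 over Suz12, Aebp2 over Jarid2, Jarid2 over Ezh1 and Ezh1 over Phf19. Each of these 4 steps was 2.14-fold to 2.48-fold by mean TPM. The place of Ezh2 was that of its gene TPM, which includes short noncoding models. On complete coding models it stood at 21.83 and 26.53 TPM, against 60.94 and 64.08 TPM for Rbbp7. Suz12 stood at 21.85 and 26.19 TPM on that scale, so the step of Ezh2 over Suz12 was not kept.

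**Figure D1:**
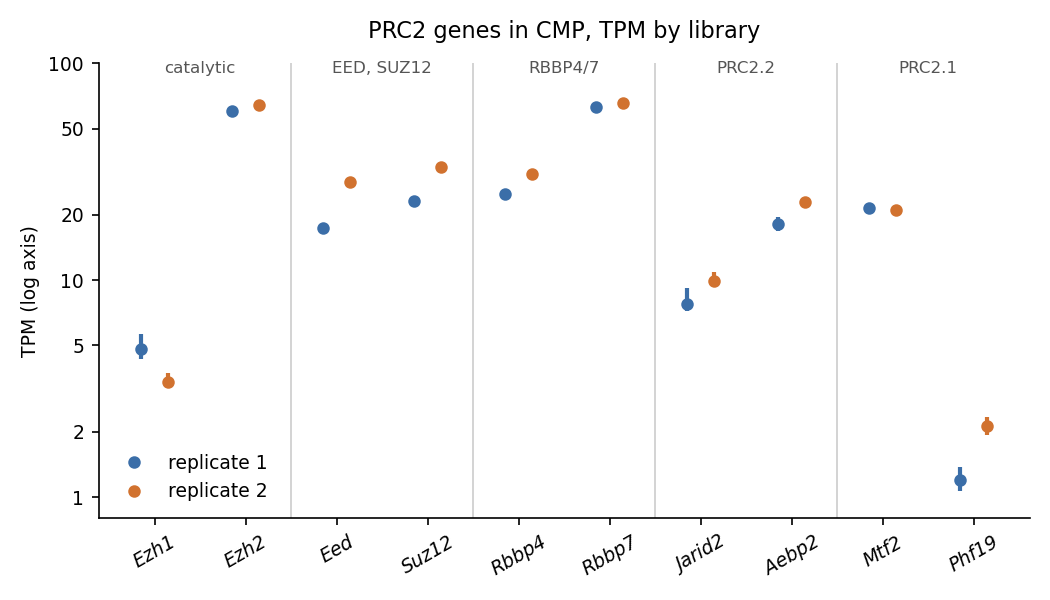
TPM of the 10 PRC2 genes on a log axis, 1 point per library with the deposited lower and upper bounds as a line, ordered by role. Ezh2 and Rbbp7 lie above 60 TPM in both libraries, Ezh1 between 3.4 and 4.83 TPM, and Phf19 lowest at 1.2 and 2.12 TPM.

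Of the 2 catalytic subunits, Ezh2 was by far the higher. Ezh2 (ENSMUSG00000029687.12, chr6:47530139-47595341) stood at 60.49 and 63.96 TPM in replicates 1 and 2, a mean of 62.2 ± 2.45. Ezh1 (ENSMUSG00000006920.10, chr11:101191115-101226463) stood at 4.83 and 3.4 TPM, a mean of 4.12 ± 1.01. The lowest Ezh2 value lay far above the highest Ezh1 value, and the ratio was 12.5-fold in replicate 1 and 18.8-fold in replicate 2. On the log2 scale the difference, Ezh2 over Ezh1, was 3.94 ± 0.415 (SD, n = 2). By mean TPM 2.16% of nuclear protein-coding genes stood above Ezh2 and 29.7% stood above Ezh1.

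That ratio depended on how Ezh2 RNA was divided among models. The expected counts were 5193 and 15748 for Ezh2 and 1152 and 2333 for Ezh1, and with no length correction the ratio was 4.51-fold and 6.75-fold. The effective length that turned counts into TPM was 1126.11 and 1264.53 bases for Ezh2 and 3130.57 and 3522.61 bases for Ezh1. A narrower measure was the sum over complete coding models, those annotated as protein-coding with both ends of the coding sequence. It was 21.83 and 26.53 TPM for Ezh2 against 3.69 and 2.94 TPM for Ezh1, or 5.92-fold and 9.02-fold. Ezh2 was thus the higher enzyme gene in both libraries on each scale, by a factor that ran from 4.51 to 18.8.

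By TPM the most abundant Ezh2 model was not a coding one, whereas by expected counts a coding model led in each library, Ezh2-201 with 37.1% in replicate 1 and Ezh2-203 with 35.3% in replicate 2. Ezh2-209, annotated as a target of nonsense-mediated decay (the breakdown of mRNA with an early stop codon), stood at 20.36 TPM in replicate 1 and 21.57 TPM in replicate 2. These were 33.65% and 33.73% of the TPM of the gene in the deposited percentages, but 13.5% and 12.4% of its expected counts, since the model is 666 bases long. Its deposited bounds, 17.6 to 22.4 TPM and 19.7 to 23.1 TPM, overlapped between the libraries. Ezh2-208, the other model with the cassette exon printed above, stood at 5.86 TPM in replicate 1 and 0.09 TPM in replicate 2. Among the 7 Ezh2 models that extend past both ends of this exon, the 2 that include it made up 48.3% and 39.7% of TPM in replicates 1 and 2, on average 44.0% ± 6.08 (SD, n = 2). By expected counts, in which a short model weighs less, they held 19.1% and 14.3%. These shares come from models of unequal length and not from reads across the exon's junctions, which were not analysed here.

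Among the coding models of Ezh2 the libraries differed. Ezh2-201 stood at 10.36 TPM in replicate 1 and 1.6 TPM in replicate 2, whereas Ezh2-203 stood at 1.87 and 12.24 TPM. In the annotation the pair differ by the 117-base exon printed above, and the deposited lengths of 2652 and 2535 bases also differ by 117. Their deposited bounds did not overlap between the libraries: 6.28 to 12.3 against 0.506 to 2.83 TPM for Ezh2-201, and 0.00922 to 5.11 against 10.9 to 13.3 TPM for Ezh2-203. The model with the exon was therefore the higher of the pair in 1 library and the lower in the other, and no inclusion level for it can be read from these tables. Ezh2-202, which lacks the 126-base exon and has shorter ends, stood at 8.9 and 9.69 TPM, within overlapping bounds.

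**Figure D2:**
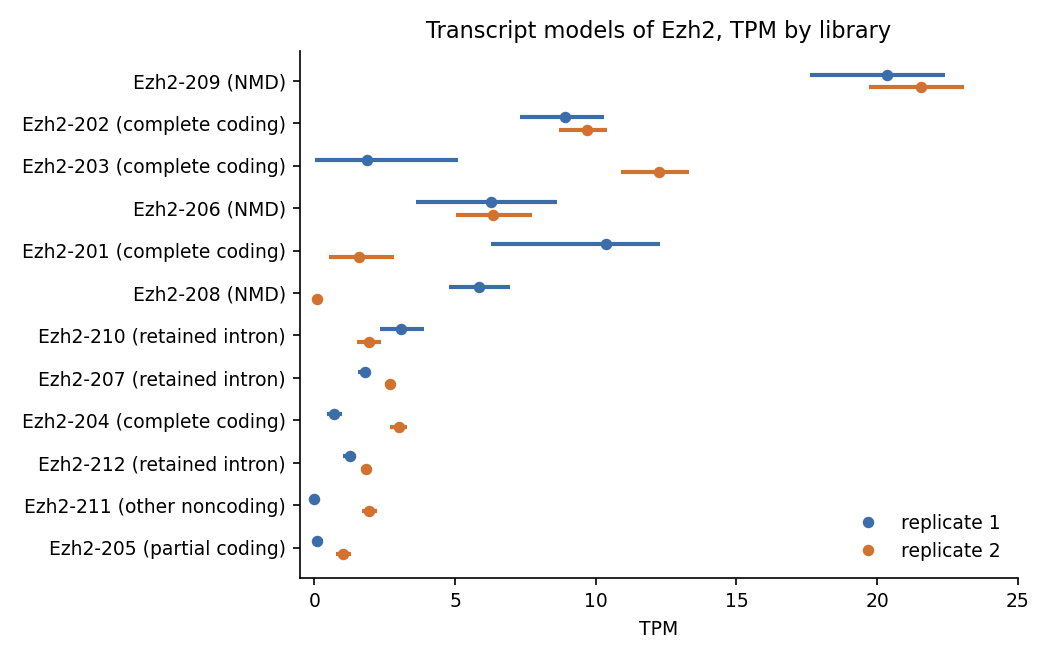
TPM of the 12 transcript models of Ezh2, 1 point per library with the deposited bounds as a line and the model class in brackets. Ezh2-209 is the highest in both libraries, at 20.36 and 21.57 TPM, while Ezh2-201 and Ezh2-203 trade places between them.

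Ezh1 had fewer models in use. Ezh1-202, a complete coding model, held 70.88% and 77.01% of its TPM, at 3.42 and 2.62 TPM. It differs from Ezh1-203 by 14 bases, and the deposited bounds of Ezh1-202 in replicate 1 ran from 0.422 to 3.35 TPM, a range that leaves out the deposited value itself. The split between these models is uncertain for that reason. Ezh1 also differed most between the libraries among the 10 genes by counts, with a log2 ratio of replicate 2 over replicate 1 of -0.56.

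The start regions of the catalytic pair differ in sequence, and both are shown because the pair differ in level. Each window runs from 250 bases before to 30 after the RefSeq start, on the minus strand, from the GRCm38.p6 table of RefSeq starts, at chr6:47595001-47595280 for Ezh2 and chr11:101226434-101226713 for Ezh1. Capitals mark exact matches, on either strand, to CCAAT, the element bound by NF-Y, or to the E2F letters TTTCCCGC, TTTCGCGC, TTTGCCGC or TTTGGCGC, which do not overlap CCAAT. On the opposite strand CCAAT reads ATTGG.
Ezh2 promoter: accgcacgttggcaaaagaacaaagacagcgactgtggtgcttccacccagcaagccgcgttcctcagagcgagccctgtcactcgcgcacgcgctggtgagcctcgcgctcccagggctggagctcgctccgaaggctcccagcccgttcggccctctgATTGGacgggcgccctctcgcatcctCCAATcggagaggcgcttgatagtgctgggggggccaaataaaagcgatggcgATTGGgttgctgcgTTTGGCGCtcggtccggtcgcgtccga
Ezh1 promoter: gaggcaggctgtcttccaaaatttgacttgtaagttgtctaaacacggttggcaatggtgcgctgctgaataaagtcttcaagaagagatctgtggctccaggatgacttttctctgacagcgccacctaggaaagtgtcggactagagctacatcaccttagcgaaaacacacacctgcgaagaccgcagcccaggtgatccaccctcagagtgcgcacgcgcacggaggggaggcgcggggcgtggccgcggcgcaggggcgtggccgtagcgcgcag
In the full windows of 300 bases, Ezh2 had 3 CCAAT matches and 1 E2F match, and Ezh1 had neither. The 10 genes had 14 windows in the table. CCAAT was found in 9 of the 14 and an E2F match in 3, those of Ezh2, Phf19 and Suz12, against 37.4% and 2.26% of all 32851 windows of that length. By gene, 8 of 10 held CCAAT in at least 1 window, against 41.1% of all genes in the table; Mtf2 and Aebp2 did so in only 1 of their windows. Phf19, the lowest of the genes, and Ezh2, among the highest, both held an E2F match. A match is a string of letters and no measure of binding.

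By gene TPM the structural core subunits Eed and Suz12 lay below Ezh2. In expected counts, with no length correction, Suz12 was above Ezh2, at 6929 and 21719 against 5193 and 15748. Suz12 (ENSMUSG00000017548.11, chr11:79993106-80034123) stood at 23.11 and 33.07 TPM, a mean of 28.1 ± 7.04. Eed (ENSMUSG00000030619.8, chr7:89954654-89980983) stood at 17.37 and 28.21 TPM, a mean of 22.8 ± 7.67. Both were higher in replicate 2, and their ranges overlapped each other. On complete coding models alone the core trio lay close together: 21.83 and 26.53 TPM for Ezh2, 21.85 and 26.19 TPM for Suz12, and 16.16 and 18.2 TPM for Eed. The gap between Ezh2 and the other core genes, 3.48-fold over Eed in replicate 1 and 2.27-fold in replicate 2 at gene level, was 1.35-fold and 1.46-fold on this sum.

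Most of the gap between the libraries for Eed lay in 1 short model. Eed-202, a retained-intron model of 454 bases with the intronic stretch printed above, stood at 1.21 TPM in replicate 1 and 10.01 TPM in replicate 2, on 22.08 and 492.29 expected counts. It held 6.95% and 35.49% of the TPM of the gene. An antisense gene, E230029C05Rik, lies opposite Eed-201 over 261 bases and had 0 and 90 counts, and its part in the Eed values was not tested. The coding model Eed-201 stood at 16.16 and 18.2 TPM. By depth-scaled counts the gene as a whole was nearly the same in both libraries, at 81.8 and 84.4 CPM (counts scaled to the library total), while its TPM was 1.62-fold higher in replicate 2. Suz12 had a like pattern on a smaller scale, with 246 and 258 CPM and a TPM 1.43-fold higher in replicate 2. Its short decay model Suz12-204 stood at 1.26 and 4.9 TPM, and a retained-intron model, Suz12-203, was listed at 0 in replicate 1 and at 1.98 TPM in replicate 2.

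Suz12 was made mainly of coding models. Suz12-201, with the 69-base exon printed above, stood at 16.38 and 21.55 TPM. Suz12-206, without it, stood at 5.47 and 4.64 TPM. The model with the exon was the higher of the pair in both libraries, and the bounds of the pair did not overlap within either library, at 14.2 to 17.9 against 3.61 to 7.28 TPM in replicate 1 and 19.8 to 23.0 against 2.96 to 6.09 TPM in replicate 2.

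Rbbp4 and Rbbp7 encode close relatives that bind histones H3 and H4 and also serve other chromatin complexes. Rbbp7 (ENSMUSG00000031353.9, chrX:162760402-162779092) stood at 62.82 and 65.42 TPM, a mean of 64.1 ± 1.84. Rbbp4 (ENSMUSG00000057236.10, chr4:129307100-129335370) stood at 25.06 and 30.82 TPM, a mean of 27.9 ± 4.07. Rbbp7 was 2.51-fold higher in replicate 1 and 2.12-fold higher in replicate 2, a log2 difference, Rbbp4 over Rbbp7, of -1.21 ± 0.17 (SD, n = 2). In expected counts the pair were nearly equal, at 8041 and 9157.87 in replicate 1 and 25182 and 25081.74 in replicate 2. The order by TPM therefore rests on length: the main coding models, Rbbp4-201 and Rbbp7-201, are 4407 and 2244 bases long.

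Reads of this pair could in principle be shared, and their coding sequences are 78.0% identical in bases. Expected counts were whole in both libraries, to within 0.005, for 9 of the 10 PRC2 genes. This was near the share of 89.6% for nuclear protein-coding genes with a mean count of at least 10. Whole counts do not show that no reads were shared. The exception among the 10 genes was Rbbp7. A processed pseudogene, Gm6382, is 97.1% identical to Rbbp7-201 over 942 bases and had 14.13 and 27.26 expected counts, which were not whole either. Rbbp4-201 has near copies in the pseudogenes Gm4800 (90.9% identical over 1280 bases) and Gm48609 (95.0% over 239 bases), and Mtf2-201 in Gm49301 (91.8% over 329 bases); the levels of these 3 were not analysed here. Aebp2-202 has one in Gm14240 (94.4% over 534 bases), which had 0 counts in both libraries. Parts of the Mtf2, Rbbp7, Rbbp4 and Suz12 transcripts also lie opposite other genes: Tmed5 over 396 bases, Txlng over 174 bases, Gm26722 and Sync over 799 and 521 bases, and Gm26563 over 180 bases. Tmed5 had 5235 and 14649 counts, about as many as Mtf2 with 5244 and 12427, and Txlng had 3417.69 and 7925.52. The other 3 had at most 50 counts in either library. Whether counting used the strand was not given in the sources used here.

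Both pairs of accessory subunits were transcribed. Among the genes of PRC2.2, Aebp2, which encodes a zinc finger protein, stood above Jarid2, which encodes a relative of histone demethylases without their activity. Aebp2 (ENSMUSG00000030232.13, chr6:140622663-140678472) stood at 18.18 and 22.83 TPM, a mean of 20.5 ± 3.29. Jarid2 (ENSMUSG00000038518.11, chr13:44729474-44921643) stood at 7.73 and 9.86 TPM, a mean of 8.8 ± 1.51. The ratio was 2.35-fold and 2.32-fold by gene TPM, 1.48-fold and 1.83-fold on complete coding models, and 1.22-fold and 1.49-fold in expected counts. Aebp2 was the higher of the pair on each scale in both libraries.

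The share of Aebp2 in coding models differed between scales. The processed transcript Aebp2-207, with no coding sequence annotated, stood at 8.01 and 7.63 TPM. The coding model Aebp2-201 stood at 4.27 TPM in replicate 1 and 7.82 TPM in replicate 2, and Aebp2-202 at 1.82 and 1.07 TPM. Aebp2-201 was the higher of these 2 coding models in both libraries. Its coding sequence is 825 bases in M21, against 1491 bases in Aebp2-202, but M21 and the deposited table give Aebp2-201 different lengths, so the coding length of the quantified model was not checked. Complete coding models together held 33.5% and 39.8% of Aebp2 TPM but 69.8% and 73.8% of its expected counts, in which short models weigh less. Of TPM, 14.4% and 26.8% was held by models with no M21 entry. For Jarid2, the coding model Jarid2-208 held 48.93% and 44.09% of TPM, at 3.78 and 4.35 TPM.

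Among the genes of PRC2.1, Mtf2 stood far above Phf19; both encode Polycomb-like proteins, which bind methylated H3K36 and DNA rich in CpG. Mtf2 (ENSMUSG00000029267.13, chr5:108065674-108109004) stood at 21.45 and 21.01 TPM, a mean of 21.2 ± 0.311. Phf19 (ENSMUSG00000026873.5, chr2:34893757-34914026) stood at 1.2 and 2.12 TPM, a mean of 1.66 ± 0.651, on 263 and 975 expected counts. Mtf2 was 17.9-fold higher in replicate 1 and 9.91-fold higher in replicate 2. Its coding model Mtf2-201 held 61.68% and 59.08% of TPM. The low Phf19 level was mostly noncoding in replicate 1: Phf19-203, which lacks the 88-base exon printed above and has no coding sequence annotated, stood at 0.92 TPM there and was listed at 0 in replicate 2. The coding model Phf19-201 stood at 0.23 and 1.25 TPM.

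Summed RNA levels of the PRC2.1 and PRC2.2 genes on the member list were close. Mtf2 and Phf19 summed to 22.65 and 23.13 TPM, and Jarid2 and Aebp2 to 25.91 and 32.69 TPM. The PRC2.1 sum leaves out Phf1, Epop, Lcor and Lcorl, read below. With Ezhip, which had 0 counts, these genes summed to 10.2 and 10.1 TPM, so the sign below holds only for the member list. The log2 difference, PRC2.1 over PRC2.2, was -0.35 ± 0.22 (SD, n = 2), below 0 in both libraries. It did not keep its sign on other scales: on complete coding models it was 0.4 in replicate 1 and -0.0406 in replicate 2, and in expected counts 0.176 and -0.303. No order of these sums can be given from 2 libraries, and a sum of RNA levels is no amount of complex.

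Across the 10 genes the share of RNA in complete coding models lay below that of most genes, by a margin that depended on the scale. By TPM its median was 69.2% in replicate 1 and 61.8% in replicate 2, against 99.4% and 96.7% over the 9860 nuclear protein-coding genes that had 100 or more expected counts in each library. By expected counts, in which short models weigh less, the medians were 86.5% and 89.8%, against 99.8% and 98.9%. The genes differed widely in TPM: Rbbp7 had 97.0% and 98.0%, Rbbp4 93.2% and 91.0%, Ezh2 36.1% and 41.5%, and Phf19 19.2% and 59.0%. In expected counts Ezh2 had 70.7% and 72.1%, and Phf19 23.5% and 88.3%. None of the quantified models of Ezh1, Rbbp7, Aebp2 and Mtf2 was of the retained-intron class in M21. Such models held TPM in the other 6 genes, a count that was not set against all genes. The shares were 6.97% and 35.5% for Eed, 25.1% and 5.27% for Jarid2, 10.1% in each library for Ezh2, 6.79% and 8.24% for Rbbp4, 4.17% and 4.72% for Phf19, and 0 and 5.99% for Suz12. The 10 genes had 83 models, of which 20 had 0 counts in both libraries. The number of annotated models per gene was not matched in this comparison.

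**Figure D3:**
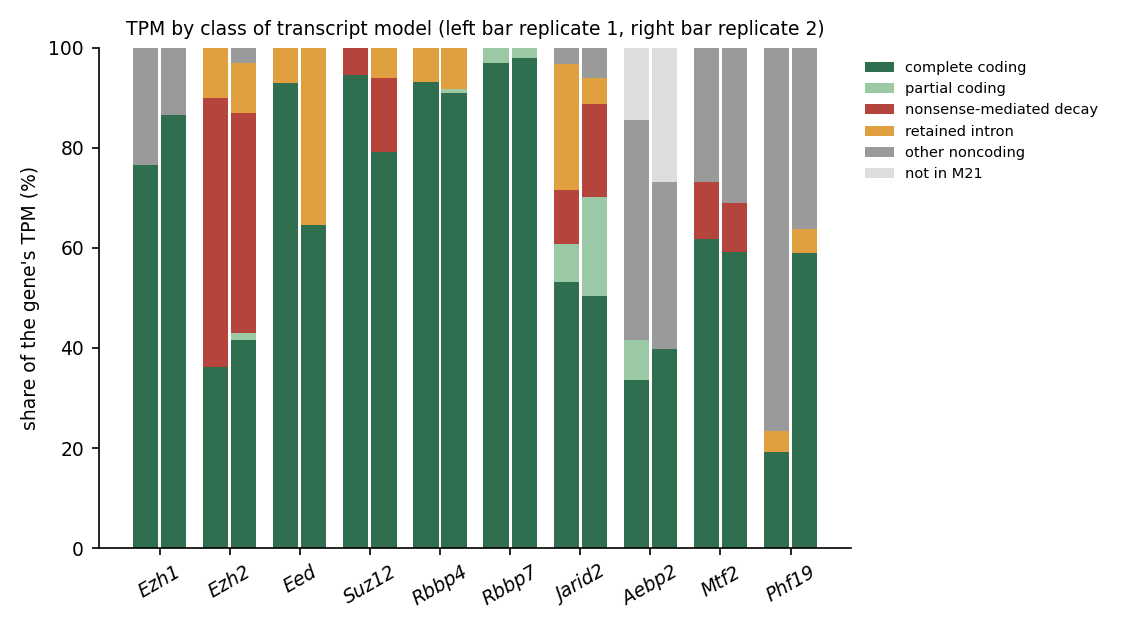
Share of the TPM of each gene, in percent, by class of transcript model in GENCODE M21, with replicate 1 as the left bar and replicate 2 as the right bar. Rbbp4 and Rbbp7 are nearly all complete coding, while Ezh2 and Aebp2 are below 42% in both libraries.

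By TPM, the most abundant model was the same in both libraries for 8 of the 10 genes, against 76.0% of nuclear protein-coding genes with at least 2 models and 100 counts. The exceptions were Aebp2, led by Aebp2-207 in replicate 1 and by Aebp2-201 in replicate 2, and Phf19, led by Phf19-203 and then Phf19-201. Deposited bounds of gene TPM did not overlap between the libraries for 8 of 10 genes, all but Ezh2 and Mtf2, against 63.7% of nuclear protein-coding genes with a mean count of at least 10. For most of these genes the libraries thus differed by more than the deposited bounds allow, which is why the SD over libraries is used here as the error.

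By depth-scaled counts the genes were close between the libraries. None of the 10 was 2-fold or more apart, by edgeR's TMM scaling or by DESeq2's size factors, against 20.9% of all 15115 genes with a mean count of at least 10. No test of a difference was run. The median absolute log2 ratio was 0.0973 for the 10 genes and 0.308 for all genes, most of which have fewer counts. Ezh2, Eed, Suz12, Rbbp4 and Jarid2 lay between 0.01 and 0.07, replicate 2 over replicate 1. Aebp2 and Phf19 were higher in replicate 2, both at 0.31, and Rbbp7, Mtf2 and Ezh1 were lower, at -0.13, -0.34 and -0.56.

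**Figure D4:**
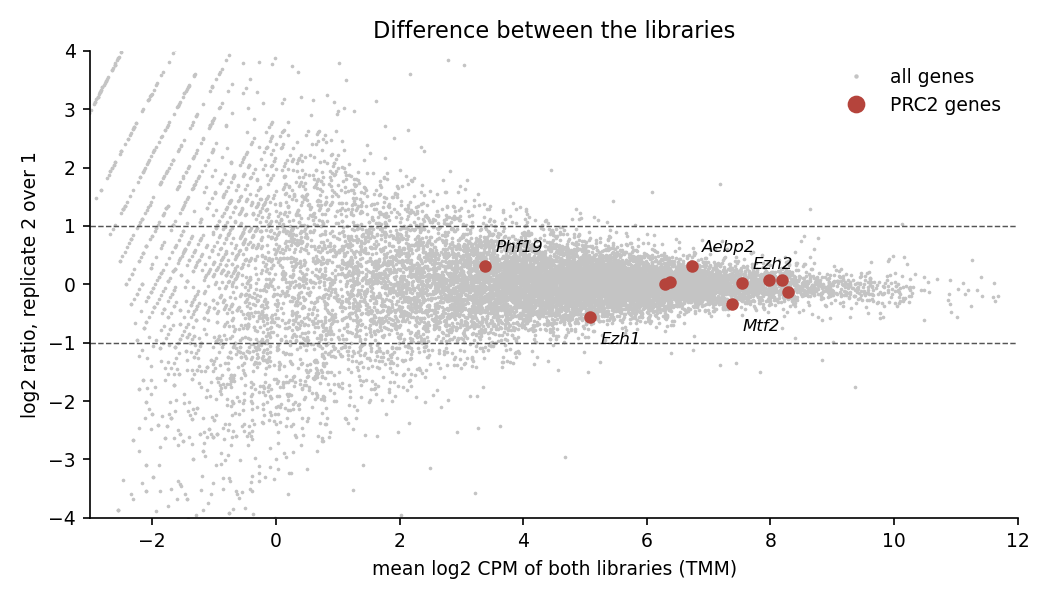
Log2 ratio of replicate 2 over replicate 1 against mean log2 CPM for 15115 genes (grey) and the 10 PRC2 genes (red), with dashed lines at 2-fold; 1326 genes outside the axes, none of them a PRC2 gene, are not drawn. All 10 lie between the lines, from -0.56 for Ezh1 to 0.31 for Aebp2 and Phf19.

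Other genes that join or counter PRC2 were read from lists of related genes. Of 5 further accessory genes, 2 reached 1 TPM in both libraries. Phf1, the remaining Polycomb-like gene, stood at 0.55 and 0.71 TPM, below both Mtf2 and Phf19 in each library. Epop, whose protein joins PRC2.1, stood at 0.39 and 0.61 TPM. Lcor and Lcorl, whose loci also encode PRC2.1 proteins called PALI, stood at 3.72 and 4.71 TPM and at 5.54 and 4.06 TPM. Ezhip, the gene of an inhibitor of the enzyme known from germ cells, had 0 counts in both libraries.

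The demethylases that remove the H3K27 mark were led by Kdm6a on the X chromosome. It stood at 8.29 and 10.69 TPM, a mean of 9.49 ± 1.7. Its Y-linked relative Uty, whose protein has little demethylase activity, stood at 7.95 and 8.47 TPM, a mean of 8.21 ± 0.368, in these male cells. Kdm6b, an inducible demethylase gene, stood at 0.73 and 1.47 TPM. All 3 were far below Ezh2 by gene TPM and, in each library, Kdm6a and Uty were above Ezh1. By depth-scaled counts the gap between Ezh2 and Kdm6a was smaller, at 184 and 187 CPM against 96.4 and 92.3 CPM. On complete coding models Ezh2 stood at 21.83 and 26.53 TPM, but the demethylase genes were not read on that scale.

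Genes known as classic Polycomb targets were not detected at this depth. All 26 of the list had 0 expected counts in both libraries, against 38.3% of nuclear protein-coding genes. The list was drawn up with earlier results of these data known, so its share cannot be weighed against that of all genes. The list held Cdkn2a and Cdkn2b, inhibitors of the cell cycle, and regulators of other lineages such as Gata4, Pax6, Sox17, Neurog2, Hoxd13, Ebf1 and Pax5. The upper limit that 0 counts leave is 3 counts, or 0.107 CPM in replicate 1 and 0.0357 CPM in replicate 2, for counting error only. No histone mark was measured in these libraries, so the data do not say which of these genes PRC2 bound.

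**Figure D5:**
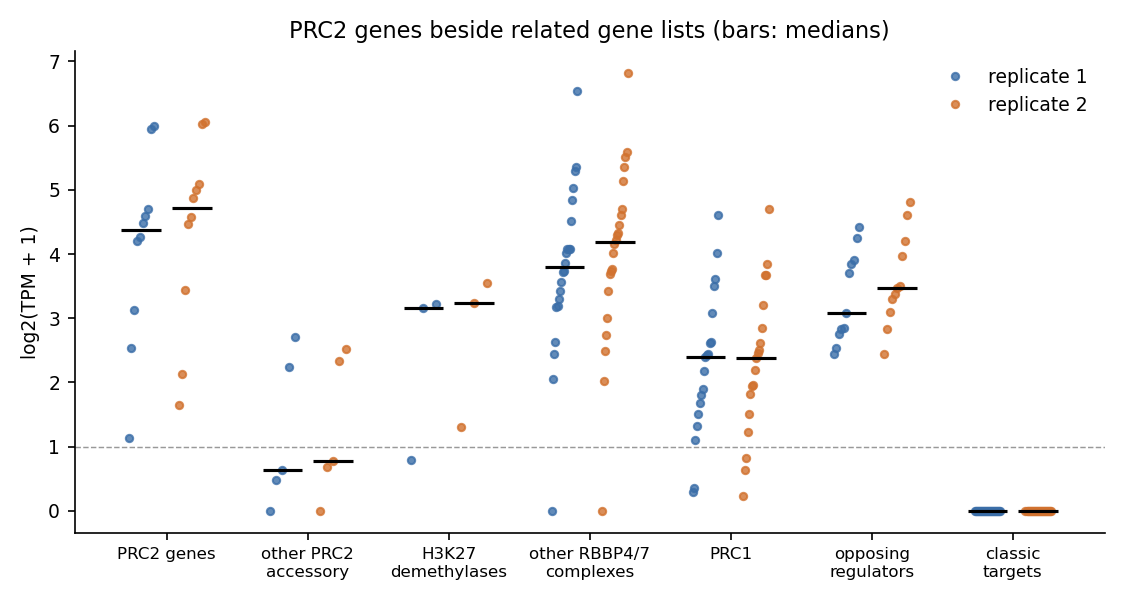
Log2(TPM + 1) of the PRC2 genes and 6 related gene lists, 1 point per gene and library with a bar at the median and a dashed line at 1 TPM. The 26 classic targets all lie at 0, and 3 of the 5 other accessory genes lie below 1 TPM.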

How the data were processed

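The data are a gene table and a transcript table for each library. Their readme files name the mm10 assembly and GENCODE M4. The aligner, quantifier and strand setting are not given in the sources used here. The authors deposited expected counts, which are estimates and can be fractions of a read. They also deposited TPM and a posterior mean TPM, both scaled by effective length per the file headers. The bounds of TPM were deposited too, on the TPM scale of the signal, with no level stated. The percent of each gene's TPM per transcript was also deposited by the authors.

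The 10 genes and all gene lists were chosen with earlier results of these data known. Names, classes and exons came from GENCODE M21 on GRCm38, by Ensembl identifier; 80 of the 83 transcript models matched and 72 had the same length. Promoter windows came from RefSeq. Model lengths are those of the deposited tables. CPM are expected counts scaled to the total over Ensembl genes. Ratios between the libraries used expected counts rounded to whole numbers, TMM scaling in edgeR 4.0.16, a prior count of 0.5 and a mean count of at least 10, with DESeq2 1.42.0 as an alternative, in R 4.3.3, and were tested on simulated data. Near copies were sought with blastn 2.17.0, at 90% identity over 150 bases. Python 3.11.15 and pandas 2.3.3 were used for tables. By rule the text names the 10 genes, the further accessory genes, the demethylases and, of other lists, the 3 highest and 3 lowest by mean TPM; the targets were all at 0, so those named were chosen after their values were seen. No molecular identifiers are named, so reads may repeat 1 molecule, and the limits drawn from 0 counts cover counting error only.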

Additional observations from a re-analysis of the deposited data

How the results depend on the processing

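Of 39 alternative values of 7 results, 31 moved by less than the spread between the libraries or, for counts, by less than 1.5 times. The 31 include values with 1 library left out. For the median and the 3 log2 differences such values could not move past that spread, so they are no check on these results. The median of the 10 genes, 22.7 ± 4.03 TPM, was 109.0 TPM when TPM was rescaled to nuclear protein-coding genes and 15.0 TPM on complete coding models only. The log2 difference of Ezh2 over Ezh1 was 2.46 in expected counts with no length correction and 2.87 on complete coding models. That of Rbbp4 over Rbbp7 was -0.0909 in expected counts, and that of PRC2.1 over PRC2.2 was -0.0634 in expected counts and reversed to 0.18 on complete coding models. On complete coding models 1 gene, Phf19, was 2-fold or more apart between the libraries, and 9 of 10 genes reached 1 TPM. Alternatives with complete coding models were chosen after seeing the data. With 1 library left out, the median ranged from 19.8 to 25.5 TPM, and the 3 log2 differences from 3.65 to 4.23, from -1.33 to -1.09 and from -0.499 to -0.194, in the order given above. In either library alone all 10 genes reached 1 TPM, which follows from their reaching it in both. Results that compare the libraries cannot be had from 1 library. No paired analysis was possible because there was 1 group. With 2 libraries no error smaller than their spread can be claimed, and transcript levels of models that share most bases, such as Ezh2-201 and Ezh2-203, are limited by the reads over the few bases that differ.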

Other observations

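RBBP4 and RBBP7 are shared with histone deacetylase, nucleosome remodelling, chromatin assembly and cell cycle complexes, and 21 of 22 genes of that list reached 1 TPM in both libraries, with medians of 12.9 and 17.2 TPM. Chd4, the remodelling enzyme of the NuRD complex, was the highest at 92.25 and 112.32 TPM. Hdac2, a deacetylase, followed at 39.98 and 46.94 TPM, and Hat1, the enzyme that acetylates new histone H4 together with RBBP7, at 38.17 and 44.42 TPM. These 3 genes were also the nearest in level to Ezh2 over both libraries among the accessory, demethylase, RBBP4/7, PRC1 and opposing regulator genes, by the summed absolute difference of log2(TPM + 1): 1.024 for Hdac2, 1.167 for Hat1 and 1.404 for Chd4. This distance used the gene TPM of Ezh2, which includes short noncoding models. On complete coding models Ezh2 stood at 21.83 and 26.53 TPM, below the gene TPM of all 3, and the distances were not computed on that scale. The lowest of the RBBP4/7 list were Smarca1, with 0 counts in both libraries, Lin52 at 3.15 and 3.05 TPM, and Lin37 at 4.43 and 4.63 TPM.

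Genes of PRC1, the complex that ubiquitinates histone H2A and reads the mark of PRC2, stood lower, with medians of 4.27 and 4.19 TPM. Of these 19 genes, 16 reached 1 TPM in both libraries. Rnf2, the main ubiquitin ligase gene, led at 23.45 and 25.1 TPM, followed by Kdm2b at 15.14 and 13.31 TPM and Bmi1, which maintains blood stem cells, at 11.21 and 11.71 TPM. Pcgf2, the close relative of Bmi1, was lowest at 0.22 and 0.18 TPM. The mark readers Cbx8 and Cbx7 stood at 0.28 and 0.55 TPM and at 1.14 and 0.76 TPM. All 11 regulators that oppose H3K27 methylation or PRC1 reached 1 TPM. The histone H3K36 methyltransferase genes Setd2, Nsd2 and Nsd1 were highest, at 20.51 and 27.18, 17.93 and 23.33, and 13.93 and 17.4 TPM. Kmt2a, Crebbp and Ash1l were lowest, at 4.41 and 4.44, 4.8 and 6.1, and 6.09 and 7.52 TPM.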
